A study of Homo sapiens with 4 samples.

Results

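The genes described here are 9 regulators of cell cycle arrest in HepG2, a human liver cancer line that keeps many hepatocyte genes active. They were chosen by name, from 23368 gene symbols in the deposited table, as the CDK inhibitor genes CDKN1A, CDKN1B, CDKN1C and CDKN2B, the stress genes GADD45A, GADD45B and GADD45G, the p53 antagonist MDM2 and the p53-induced antiproliferative gene BTG2. All 9 were in the table, and the choice was made with earlier results of these data known. RNA sequencing gave 4 libraries, with 1 library per condition. The library titled shPJA/TGFb1 names in its title both a lentiviral hairpin against PJA1, a RING-type ubiquitin ligase, and TGF-beta1, but its treatment is given as water. Because of this conflict it is named below by that title, which also decides its place in every comparison. The TGFb1 cells received TGF-beta1, for which the protocol gives 200 pM for 1 hour, and the labels do not say whether these cells carried a hairpin. The shPJA1 library came from cells infected with the PJA1 hairpin and the shCtrl library from cells infected with a control hairpin.

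TGF-beta arrests many epithelial cells in the first gap phase of the cell cycle. Its receptors phosphorylate SMAD2 and SMAD3, which with SMAD4 can raise the CDK inhibitors encoded by CDKN2B and CDKN1A and lower MYC. The tumour suppressor p53 holds the cycle through CDKN1A, GADD45A and BTG2 and also drives MDM2, the ubiquitin ligase that degrades it. GADD45 proteins bind and activate the kinase MAP3K4 upstream of p38, and GADD45B is known as an early SMAD target.

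Values are normalized counts, that is, reads per gene divided by 1 size factor per library, with no scaling by gene length. The libraries held 990698 to 2848665 reads assigned to genes, and 1 read was worth 1.63 normalized counts in the library titled shPJA/TGFb1 and 0.570 in TGFb1. Each condition has a single library, so a pair of libraries has no replicate check and no test. The exact 95% intervals given beside ratios cover counting error only. The 5 comparisons share libraries and are not independent of each other. PJA1 had a normalized count of 9.78 in the library titled shPJA/TGFb1, 38.2 in TGFb1, 15.3 in shPJA1 and 50.3 in shCtrl, so both libraries with the hairpin in their title were low. SMAD7, an inhibitory SMAD induced by TGF-beta, had 158.1, 168.0, 69.3 and 83.0 in the same order, so the library titled shPJA/TGFb1 stood with TGFb1, which follows its title and goes against its water label. All 9 hepatocyte markers looked up had reads, and their summed normalized count ran from 32648 to 38257. In TGFb1 over shCtrl all 9 were lower, with a median log2 ratio of -0.32, and in the library titled shPJA/TGFb1 over shPJA1 5 were higher and 4 lower, with a median of 0.03. Their part in the results was not tested. Of the 13387 genes averaging at least 1 normalized count, 6832 were lower in the first of these pairs. In the second 6521 were higher and 6835 lower. Of 5 leukocyte markers, PTPRC and CD3E were at 0 in every library, and LYZ, at 978.4 to 1343, made up nearly all of a summed count of 984.7 to 1351. The 5 fibroblast markers summed to 3.60 to 8.15, with DCN and LUM at 0, and the 4 endothelial markers to 0 to 3.51, with CDH5 and KDR at 0.

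Of the 9 genes, 7 averaged at least 1 normalized count over the 4 libraries, and the same 7 averaged at least 20. Of these 7, only GADD45B was at or beyond 2-fold, measured as the log2 ratio of the normalized count plus 1, in any of the 5 comparisons of 2 libraries. It was beyond 2-fold in TGFb1 over shCtrl and, for the library titled shPJA/TGFb1, over shPJA1 and over shCtrl. In these comparisons 1 of 7 was thus beyond 2-fold, against 8.84%, 11.1% and 12.1% of the 13387 genes averaging at least 1, and 1.17%, 1.08% and 1.64% of the 8575 averaging at least 20. In shPJA1 over shCtrl and in the library titled shPJA/TGFb1 over TGFb1, 0 of the 7 were beyond 2-fold, against 8.23% and 9.94% of the 13387 genes and 0.513% and 1.31% of the 8575. In bulk RNA, fewer cells of a type and less RNA per cell cannot be told apart. The plot of normalized counts shows the separation for GADD45B and the flat levels of MDM2 and CDKN1A.

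**Figure D1:**
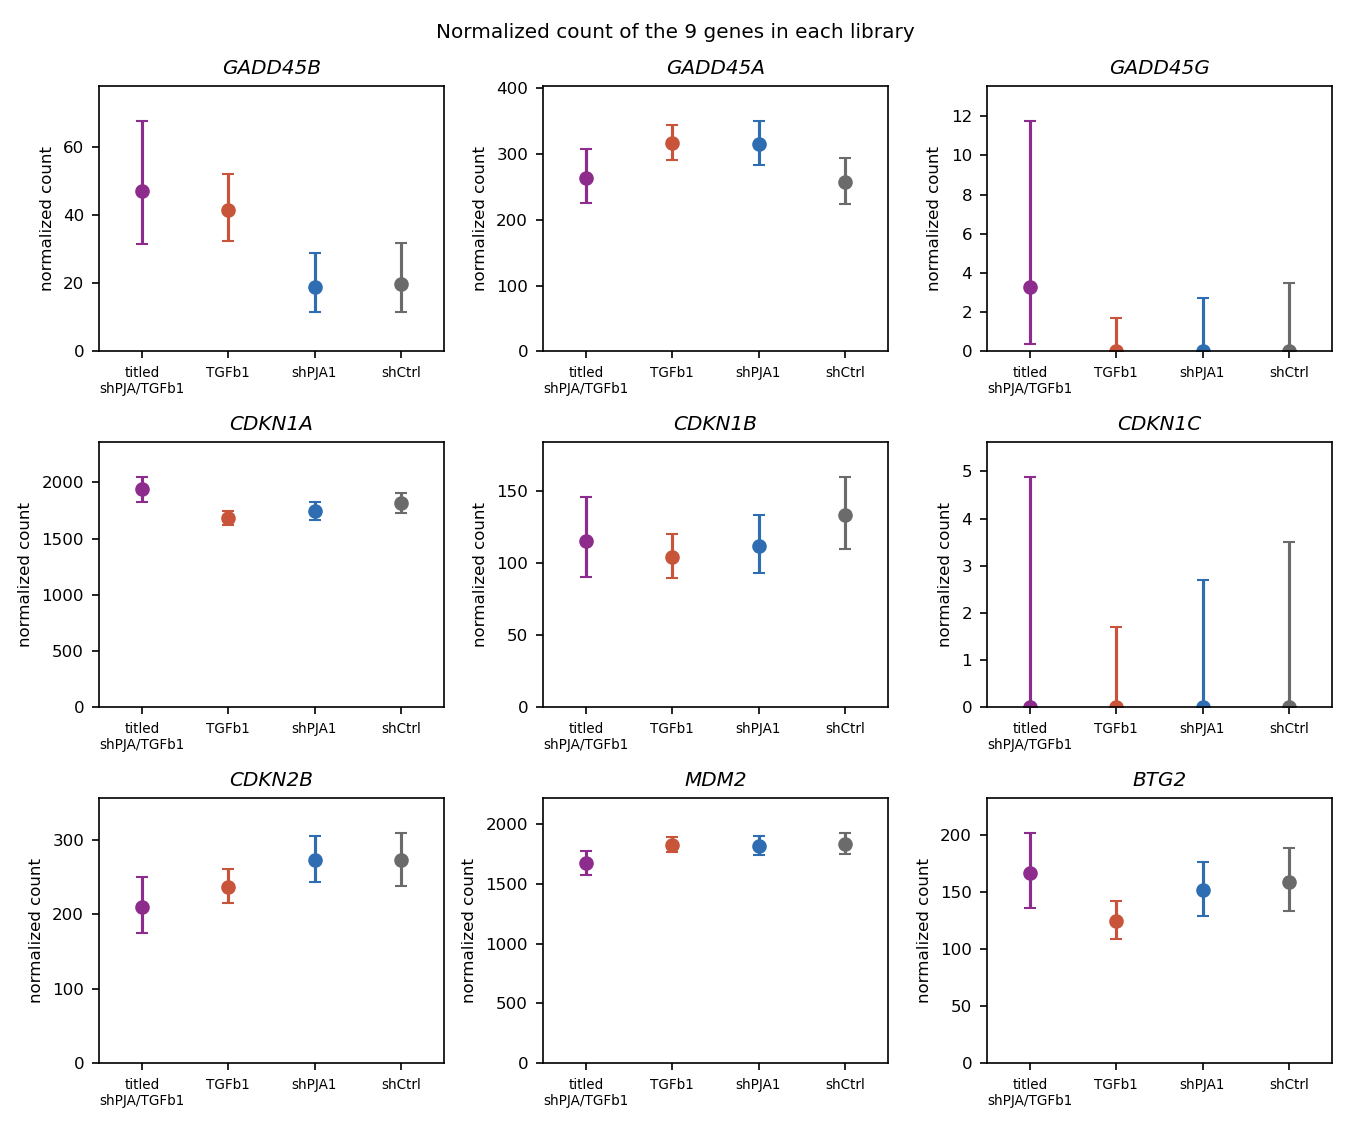
Normalized count (y axis, from 0) of each of the 9 genes in the library titled shPJA/TGFb1, TGFb1, shPJA1 and shCtrl (x axis). Points are single libraries and bars are exact 95% Poisson intervals of the count, or reach to the limit of 3 reads where the count is 0; GADD45B is at 47.3 and 41.6 in the libraries with TGFb1 in their title and at 18.9 and 19.9 in the others, while CDKN1C is at 0 in all.

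GADD45B encodes a small acidic stress protein of the GADD45 family, which links stress and cytokine signals to p38 and JNK kinases. Its normalized count was 47.3 in the library titled shPJA/TGFb1 and 41.6 in TGFb1, against 18.9 in shPJA1 and 19.9 in shCtrl, from 29, 73, 21 and 17 reads. Both values with TGFb1 in the title lay above the others. The counting interval of the library titled shPJA/TGFb1 began at 31.7, where that of shCtrl reached 31.8. How many of all genes sort by title in this way was not counted. The TGFb1 level of GADD45B was 2.09 times its shCtrl level (1.22 to 3.78). With both hairpin and TGFb1 in the title it stood at 2.50 times the shPJA1 level (1.38 to 4.61). The hairpin pairs did not separate, at 0.95 in shPJA1 over shCtrl (0.48 to 1.92) and 1.14 in the library titled shPJA/TGFb1 over TGFb1 (0.71 to 1.77). Both intervals are wide enough to hold a difference of over 1.5-fold. Under the water label the 47.3 would be a value without TGF-beta1, above the 41.6 of TGFb1.

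An edgeR quasi-likelihood fit of hairpin and TGFb1 by title as additive terms, across 10210 genes, used all 4 libraries and had 1 residual degree of freedom. GADD45B had a log2 change of 1.18 ± 0.34 (SE) for TGFb1, higher in 2 of 2 libraries than in their partners, with an unadjusted p of 0.000504 and an adjusted p of 0.302 by edgeR. It ranked 17 of 10210 by p and did not pass an adjusted p of 0.05. The fit called 4 genes for TGFb1, which is 0.0392% of those fitted, and 0 of the 7 arrest genes. At an unadjusted p under 0.05 it had 383 genes, or 3.75%, and 1 of the 7, GADD45B. With DESeq2 0 genes passed the adjustment, 23 had an unadjusted p under 0.05, and GADD45B had 0.0553 unadjusted. SMAD7, in the same edgeR fit, rose with a log2 change of 1.09 ± 0.22 (adjusted p = 0.00141). SMAD7 had 71 to 295 reads per library, where GADD45B had 17 to 73. For the hairpin term GADD45B had 0.09 ± 0.34 (adjusted p = 0.99985 by edgeR). That term had 1 gene called, or 0.00979%, and 235 at an unadjusted p under 0.05, or 2.3%, with 0 of the 7 in either count; with DESeq2 0 genes were called and 4 had an unadjusted p under 0.05.

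The sequences just upstream of 3 genes are shown to set GADD45B beside CDKN1A and MDM2, which have the most reads of the 9 genes and near-level values. They are the 250 bases before the annotated start, on the strand of the gene, from RefSeq on GRCh38.p14, which gives a window for 7 of the 9 genes. GADD45A and CDKN1C have no window, so these are not the same 7 as the genes averaging at least 1. Capitals in GADD45B mark the E-box CACGTG, the SMAD core GTCT, the CCAAT box and the TATA box. Those in CDKN1A mark the GC box GGGCGG. Those in MDM2, shown at the last of its 4 listed starts, mark the SMAD core and the AP-1 motif TGANTCA. Matches were sought on both strands, so a capital AGAC is GTCT on the other strand.
GADD45B, chr19:2475877-2476126, plus strand: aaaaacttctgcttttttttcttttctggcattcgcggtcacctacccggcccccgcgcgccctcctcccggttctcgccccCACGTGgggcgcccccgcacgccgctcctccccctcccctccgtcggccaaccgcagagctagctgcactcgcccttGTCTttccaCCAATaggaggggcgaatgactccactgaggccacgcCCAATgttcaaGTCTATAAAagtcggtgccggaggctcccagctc
CDKN1A, chr6:36678464-36678713, plus strand: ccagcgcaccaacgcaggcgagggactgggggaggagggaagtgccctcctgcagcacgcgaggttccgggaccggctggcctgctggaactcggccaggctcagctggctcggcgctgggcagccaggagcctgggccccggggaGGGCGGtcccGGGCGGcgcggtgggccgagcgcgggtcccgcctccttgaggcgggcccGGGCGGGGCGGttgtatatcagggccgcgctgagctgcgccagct
MDM2, chr12:68808774-68809023, plus strand: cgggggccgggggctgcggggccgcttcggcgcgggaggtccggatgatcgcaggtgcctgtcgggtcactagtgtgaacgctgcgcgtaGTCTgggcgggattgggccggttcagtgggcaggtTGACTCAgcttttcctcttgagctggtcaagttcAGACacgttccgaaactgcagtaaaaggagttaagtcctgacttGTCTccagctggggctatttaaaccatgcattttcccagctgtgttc

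The GADD45B window had a TATA box, TATAAA, from base 31 to base 26 before the start, which 10.7% of 35116 promoter windows of this length hold. It had 2 CCAAT boxes (in 32.0% of windows), 1 E-box, CACGTG (6.34%), and 2 matches to GTCT, the core bound by SMAD proteins, which 77.5% of windows hold. The second GTCT shares its last base with the TATA box. CDKN1A had 4 GC boxes, GGGCGG (42.6%), of which the last 2 share a base, and no GTCT. MDM2 at this start had 3 GTCT matches, 2 of them inside the longer form CAGAC (38.0%), 1 AP-1 match, TGANTCA (6.57%), 1 GC box, which shares a base with a CAGAC, and 1 CCAAT box, both left in lower case. GTCT was found in a window of 5 of the 7 genes that have one, and not in those of CDKN1A and BTG2. For MDM2 it was in the windows of starts 3 and 4 only. Those of its starts 1 and 2 had no GTCT, CAGAC or AP-1 match. The palindrome GTCTAGAC (0.182%), TGACGTCA (1.65%), the NF-kappaB motif (5.21%) and the CArG box (1.16%) were in none of these windows. GADD45A and CDKN1C were not searched. An exact match to the p53 half-site pattern RRRCWWGYYY (5.57%) was also in none of the windows searched. In this pattern R is A or G, W is A or T, and Y is C or T. Only exact matches were sought, so p53 sites that depart from this pattern would be missed, also in the MDM2 window.

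GADD45A, the p53-responsive member of the family, was not paired with GADD45B. Its normalized count was 264.1 in the library titled shPJA/TGFb1, 316.6 in TGFb1, 316.0 in shPJA1 and 257.1 in shCtrl. TGFb1 and shPJA1 were the high libraries, so the values did not sort by TGFb1 or by the hairpin alone. Over shCtrl the GADD45A ratio was 1.23 in TGFb1 (1.05 to 1.45) and also 1.23 in shPJA1 (1.04 to 1.46). The library titled shPJA/TGFb1 held 0.84 times the shPJA1 level of GADD45A (0.69 to 1.01), and 0.83 times that of TGFb1 (0.70 to 0.995). The fit gave a log2 change of 0.03 ± 0.18 for TGFb1 (adjusted p = 0.999 by edgeR). GADD45G, the third member, had 2 reads in the library titled shPJA/TGFb1 and 0 in the other libraries. That is a normalized count of 3.26, below the 4.89 that 3 reads are worth in that library, so no difference was detectable at this depth.

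CDKN1A encodes the CDK inhibitor p21, the main effector of p53 arrest. It had a normalized count of 1938 in the library titled shPJA/TGFb1, 1682 in TGFb1, 1744 in shPJA1 and 1816 in shCtrl, from 1189 to 2953 reads. The library titled shPJA/TGFb1 was highest and TGFb1 lowest, and the whole span was 0.20 on the log2 scale. CDKN1A in TGFb1 was 0.93 times its shCtrl level (0.87 to 0.99), and in the library titled shPJA/TGFb1 1.11 times its shPJA1 level (1.03 to 1.20). These intervals exclude 1 on opposite sides. Each library had a trend of its values with transcript GC content, which at the 58.1% GC of CDKN1A was 0.07 in the library titled shPJA/TGFb1, -0.08 in TGFb1, -0.04 in shPJA1 and 0.07 in shCtrl, in log2 units. With these trends removed the log2 ratio in TGFb1 over shCtrl was 0.03 in place of -0.11, and that in the library titled shPJA/TGFb1 over shPJA1 was 0.05 in place of 0.15. The fit gave 0.01 ± 0.16 for TGFb1 and 0.08 ± 0.16 for the hairpin (adjusted p = 0.999 and 0.99985 by edgeR).

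CDKN1B encodes p27, an inhibitor of cyclin E and CDK2 that is controlled largely through protein degradation. Its normalized count was 115.7 in the library titled shPJA/TGFb1, 104.2 in TGFb1, 111.6 in shPJA1 and 133.2 in shCtrl. Only shCtrl stood somewhat higher. CDKN1B in TGFb1 was 0.78 times its shCtrl level, with an interval that just excludes 1 (0.62 to 0.997). The library titled shPJA/TGFb1 held 1.04 times the shPJA1 level of CDKN1B (0.76 to 1.40). CDKN1C, which encodes the imprinted inhibitor p57, had 0 reads in every library. A count of 0 allows, at a limit of 3 reads, up to 4.89 normalized counts in the library titled shPJA/TGFb1, 1.71 in TGFb1, 2.70 in shPJA1 and 3.51 in shCtrl.

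CDKN2B encodes p15, the INK4 inhibitor of CDK4 and CDK6 that TGF-beta induces in many epithelial cells. Here its values were lower, not higher, in the libraries with TGFb1 in their title. They were 210.3 in the library titled shPJA/TGFb1 and 236.9 in TGFb1, against 272.8 in shPJA1 and 272.3 in shCtrl. Both values with TGFb1 in the title lay below the others, and the shPJA1 and shCtrl values were nearly equal. Counting intervals overlapped, at 214.7 to 260.8 in TGFb1 and 238.5 to 309.6 in shCtrl. How many of all genes sort by title in this way was not counted. The ratio was 0.87 in TGFb1 over shCtrl (0.74 to 1.03) and 0.77 in the library titled shPJA/TGFb1 over shPJA1 (0.62 to 0.95). Each upper bound lies below a 1.5-fold increase, but covers counting error only. With 1 library per condition, differences between cultures are not in it. In the fit CDKN2B had a log2 change of -0.29 ± 0.18 for TGFb1, lower in 2 of 2 libraries, with an unadjusted p of 0.113 and an adjusted p of 0.999 by edgeR. With the GC trend as an offset it had an unadjusted p of 0.0274 and an adjusted p of 0.836.

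MDM2 had the least variation of the 7 genes with reads in every library. Its normalized count was 1672 in the library titled shPJA/TGFb1, 1825 in TGFb1, 1817 in shPJA1 and 1835 in shCtrl. The last 3 were nearly equal and the library titled shPJA/TGFb1 was lower. There MDM2 stood at 0.92 times its shPJA1 level (0.85 to 0.99), 0.92 times that of TGFb1 (0.85 to 0.98) and 0.91 times that of shCtrl (0.84 to 0.99). In TGFb1 over shCtrl it was 0.99 (0.94 to 1.06), and in shPJA1 over shCtrl 0.99 (0.93 to 1.06). At its 41.9% GC the trends run the other way from those at CDKN1A, and with them removed MDM2 was at a log2 ratio of -0.13 in TGFb1 over shCtrl and -0.01 in the library titled shPJA/TGFb1 over TGFb1. In the fit MDM2 had -0.07 ± 0.16 for TGFb1 (adjusted p = 0.999 by edgeR).

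BTG2, an antiproliferative partner of the CCR4-NOT deadenylase, had a normalized count of 166.3 in the library titled shPJA/TGFb1, 124.7 in TGFb1, 151.3 in shPJA1 and 159.0 in shCtrl. TGFb1 alone stood lower, at 0.78 times its shCtrl level (0.63 to 0.98). BTG2 in the library titled shPJA/TGFb1 reached 1.10 times its shPJA1 level (0.85 to 1.41), and 1.33 times that of TGFb1 (1.04 to 1.69). The fit gave -0.13 ± 0.20 for TGFb1 and 0.17 ± 0.20 for the hairpin (adjusted p = 0.999 and 0.99985 by edgeR). The plot of ratios sets the 7 genes side by side in each comparison.

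**Figure D2:**
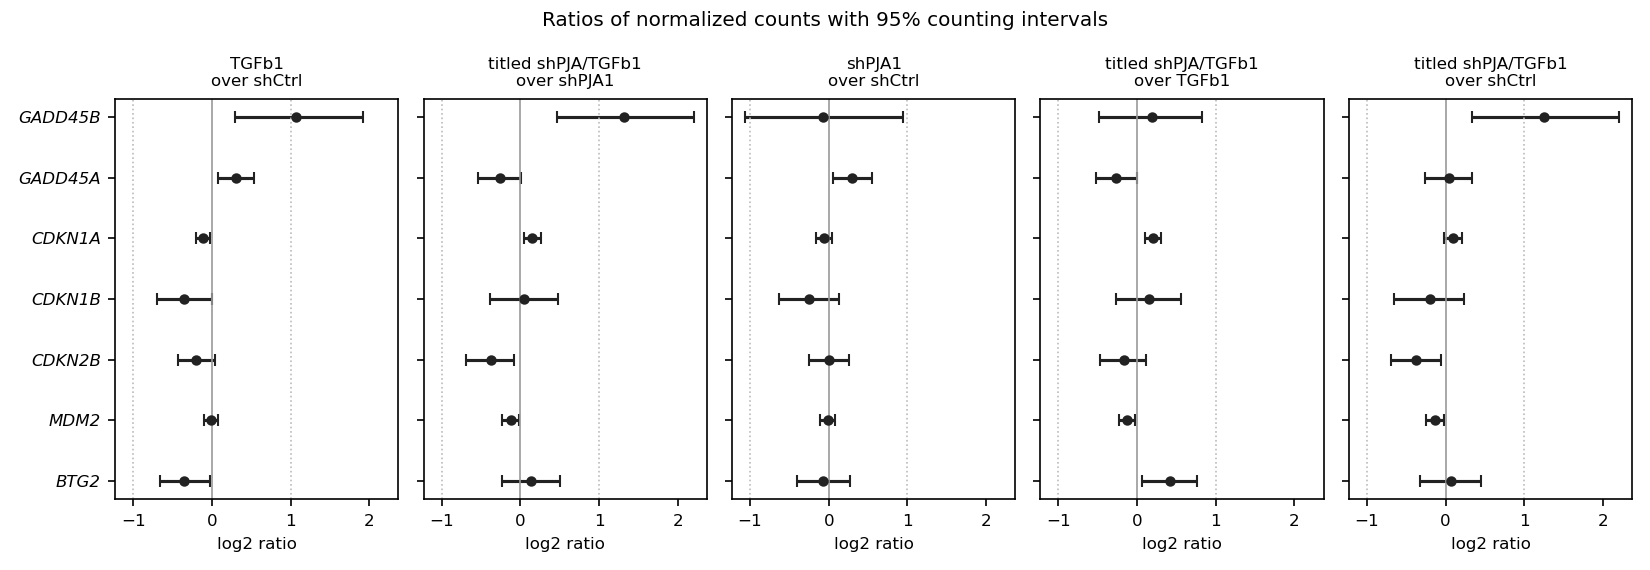
Log2 ratio of normalized counts (x axis) of the 7 genes with reads in every library, in the 5 comparisons of 2 libraries. Points are ratios of single libraries, bars are exact 95% counting intervals and dotted lines mark 2-fold; GADD45B is past the upper dotted line in the 3 comparisons of a library with TGFb1 in its title against one without, and the other genes lie between the dotted lines.

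Counted by whether the counting interval excludes 1, 5 of the 7 genes differed in TGFb1 over shCtrl and 4 of 7 in the library titled shPJA/TGFb1 over shPJA1, against 24.2% and 10.8% of the 8575 genes averaging at least 20. Between shPJA1 and shCtrl it was 1 of 7, GADD45A, against 13.2%. For the library titled shPJA/TGFb1 the count was 4 of 7 over TGFb1 and 3 of 7 over shCtrl, against 18.1% and 10.2%. Such intervals narrow with reads, and CDKN1A and MDM2 are deeply read, so these counts are not comparable in depth with the background. Median log2 ratios of the 7 were -0.11 in TGFb1 over shCtrl and 0.05 in the library titled shPJA/TGFb1 over shPJA1, against 0.02 and 0.0036 over the 8575 genes. In shPJA1 over shCtrl the 7 had -0.06, against 0.0062.

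In all 7 genes the coefficient of variation was above the value expected from counting error, in CDKN1B by the least. A coefficient from 4 values is itself uncertain, and whether it exceeds counting error was not tested. The coefficient of variation over the 4 libraries was 4.31% for MDM2 and 6.13% for CDKN1A, where counting alone gives 2.44% for each. It was 11.2% for GADD45A against 6.08% from counting, 12.2% for CDKN2B against 6.56%, and 12.1% for BTG2 against 8.43%. For CDKN1B it was 10.6%, against 9.58%. GADD45B had 45.9%, against 18.3%. The GADD45B range of 1.28 in log2(normalized count + 1) was larger than that of 98.8% of the 8575 genes, while the ranges of MDM2, at 0.13, and CDKN1A, at 0.20, were larger than those of 4.85% and 13.5%. Counting error widens the range of genes with few reads, and these percentages are not matched for depth. GADD45B had 17 to 73 reads per library, MDM2 1026 to 3205 and CDKN1A 1189 to 2953. The libraries are different conditions, so these spreads mix conditions with any difference between cultures.

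Divided by the length of the annotated exons, the levels spanned a wide range. In shCtrl CDKN1A had 723.9 normalized counts per kilobase, GADD45A 171.9, MDM2 144.2, CDKN2B 67.5, BTG2 58.6, CDKN1B 50.1 and GADD45B 12.8. CDKN1A stood above all the others in every library. GADD45A was above MDM2 in every library, at 171.9 to 211.7 against 131.4 to 144.2. BTG2, at 46.0 to 61.3, overlapped both CDKN2B, at 52.1 to 67.6, and CDKN1B, at 39.2 to 50.1, while CDKN2B lay above CDKN1B. GADD45B, at 30.3 in the library titled shPJA/TGFb1 and 26.7 in TGFb1, against 12.1 in shPJA1 and 12.8 in shCtrl, was the lowest of the 7 in all of them. The exon lengths are from GENCODE release 29 and may differ from the models used for counting, above all for MDM2, whose exons cover 12724 bases. Exons of MDM2 overlap those of other annotated genes over 1224 bases and those of CDKN1A over 32, and reads there may be shared. One of the genes that overlap MDM2 lies on its own strand, so strand would not separate those reads.

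**Figure D3:**
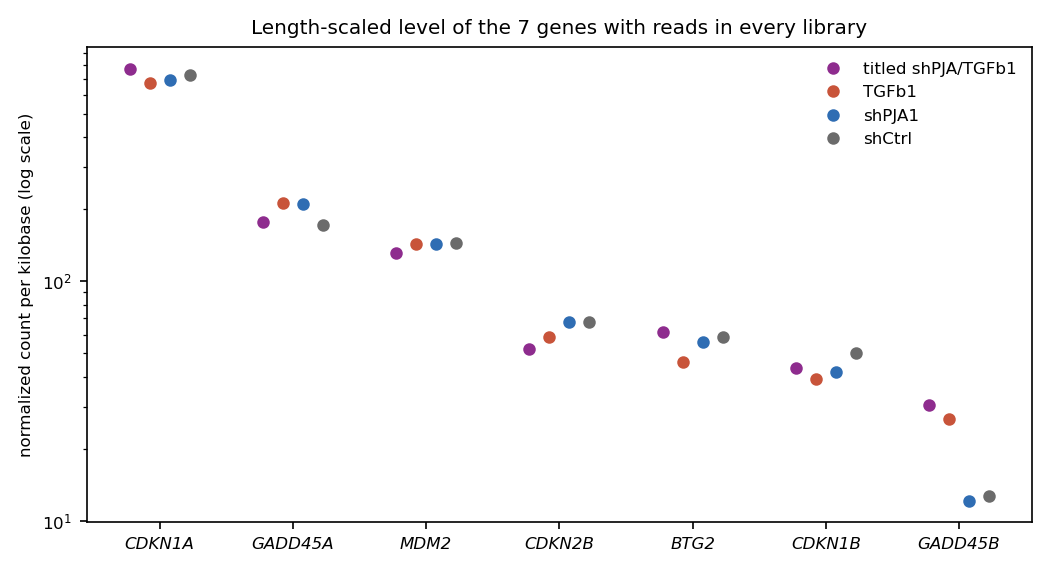
Normalized count per kilobase of annotated exon (y axis, log scale) of the 7 genes with reads in every library (x axis), ordered by their level in shCtrl; each point is 1 library. CDKN1A lies at 670.3 to 772.4, well above the others, and GADD45B is lowest, with its points split between about 12 and about 30.

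The 5 genes whose profile over the 4 libraries was nearest to that of GADD45B, out of the 8575 genes, were SGK1, ABCA5, SMAD7, LCORL and SLC36A4. Likeness was the root mean square distance of log2(normalized count + 1) after subtraction of each gene's mean, and ran from 0.07 for SGK1 to 0.14 for SLC36A4. SGK1, a serum- and TGF-beta-inducible kinase gene, had a normalized count of 83.1 in the library titled shPJA/TGFb1 and 66.1 in TGFb1, against 34.2 in shPJA1 and 36.2 in shCtrl. ABCA5, a lipid transporter gene, had 58.7 and 63.8, against 27.9 and 26.9, in the same order. All 5 were higher in both libraries with TGFb1 in their title. These genes were picked for this likeness, so their values are a description.

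**Figure D4:**
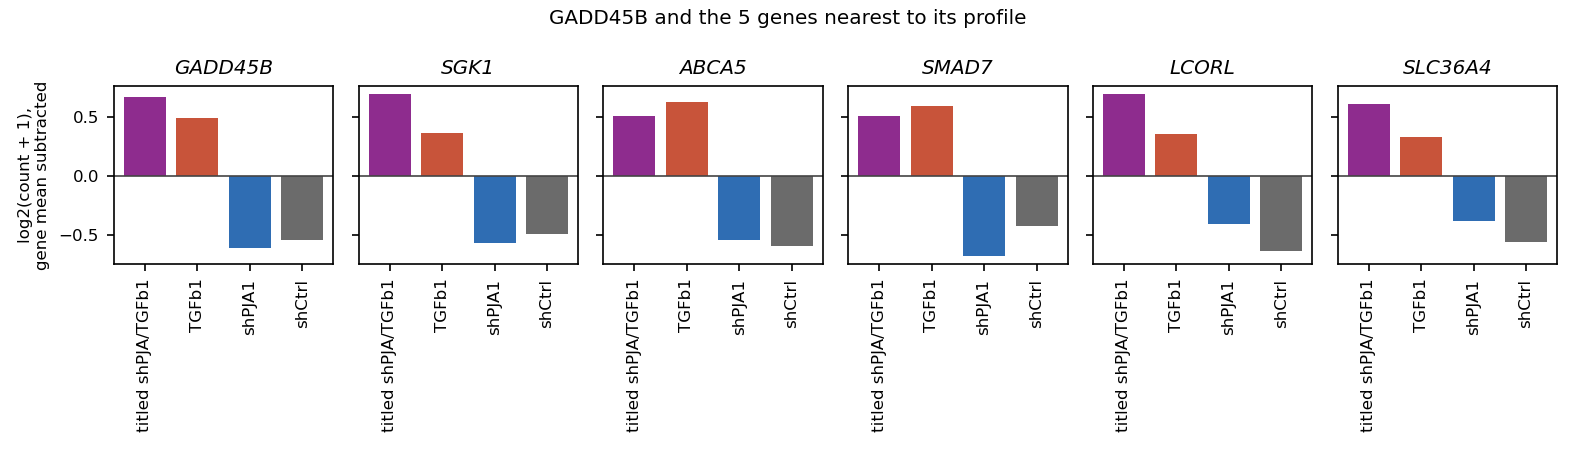
Log2(normalized count + 1) after subtraction of each gene's mean (y axis) for GADD45B and the 5 genes of nearest profile, in the library titled shPJA/TGFb1, TGFb1, shPJA1 and shCtrl (x axis). Each bar is 1 library; the first 2 bars are above 0 and the last 2 below 0 in every panel, as the choice of the genes implies.

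Another 116 measured genes on 8 lists surround these arrest regulators. In TGFb1 over shCtrl 4 of them were beyond 2-fold higher and 6 lower, which at 8.62% is close to the 8.84% of all 13387 genes. In the library titled shPJA/TGFb1 over shPJA1 2 were higher and 1 lower, or 2.59%, against 11.1% of all genes. Among the 94 averaging at least 20, 0 were higher and 1 was lower in the first comparison, or 1.06% against 1.17% of the 8575 genes, and 0 either way in the second, against 1.08%. In shPJA1 over shCtrl 0 of the 94 were beyond 2-fold, and in the library titled shPJA/TGFb1 over TGFb1 1 was higher. That single gene, in both cases, was the pro-apoptotic p53 target BAX. It had a normalized count of 48.9 in the library titled shPJA/TGFb1, 21.6 in TGFb1, 25.2 in shPJA1 and 46.8 in shCtrl, so its high libraries were the first and the last.

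PPM1D, a p53-induced phosphatase that dampens p53, was higher with TGFb1 in the title, at 171.1 in the library titled shPJA/TGFb1 and 198.8 in TGFb1, against 133.3 in shPJA1 and 116.9 in shCtrl. Its log2 change for TGFb1 was 0.57 ± 0.20, with an unadjusted p of 0.0047 and an adjusted p of 0.80 by edgeR. The checkpoint kinase gene CHEK1 was lowest in shCtrl, at 33.9, against 65.2 in the library titled shPJA/TGFb1, 50.7 in TGFb1 and 60.3 in shPJA1. The p53 target list, which holds 4 of the arrest genes, had 34 measured members with a median log2 ratio of 0.07 in TGFb1 over shCtrl, where 19 were above 0 and 15 below. In the library titled shPJA/TGFb1 over shPJA1 its median was -0.12, with 14 above and 20 below. Of all 13387 genes, 6531 were above 0 and 6832 below in the first pair, and 6521 and 6835 in the second. Other members with wide ranges were CCNG2, an unconventional cyclin, at 21.2, 39.3, 35.1 and 22.2, and the ligand gene KITLG, at 16.3, 25.1, 29.7 and 18.7, in the library titled shPJA/TGFb1, TGFb1, shPJA1 and shCtrl.

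Among the partners of the inhibitors, cyclins and CDKs had medians of opposite sign in the pairs. Of 19 genes 14 were below 0 in TGFb1 over shCtrl, with a median log2 ratio of -0.17, and 13 were above 0 in the library titled shPJA/TGFb1 over shPJA1, with a median of 0.24. Of all 13387 genes, 6832 were below 0 in the first pair and 6521 above 0 in the second. CDK2 was at 0.54 (0.33 to 0.89) and 1.21 (0.65 to 2.20) in these comparisons, and the mitotic phosphatase gene CDC25B at 0.61 (0.40 to 0.94) and 0.93 (0.52 to 1.61). MNAT1, a subunit of the CDK-activating kinase, was at 0.89 (0.65 to 1.21) and 1.68 (1.17 to 2.40). The GC trends also run opposite ways in these pairs, and their part in the medians was not tested. The CDK inhibitor list had 6 measured genes, among them CDKN1A, CDKN1B and CDKN2B described above and CDKN3, at a mean of only 6.20. Their medians were -0.16, with all 6 below 0, and -0.04, with 3 above and 3 below. With the GC trend removed CDKN1A was at 0.03 in TGFb1 over shCtrl, so not all 6 were then below 0. CDKN2A, the INK4 and ARF gene, was at 61.9, 56.4, 50.4 and 59.6 in the library titled shPJA/TGFb1, TGFb1, shPJA1 and shCtrl.

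The list of factors for TGF-beta arrest and inhibitor turnover had a median of 0.24 in TGFb1 over shCtrl, with 15 of 18 above 0. In the library titled shPJA/TGFb1 over shPJA1 the median was 0.02, with 10 above. Of all 13387 genes, 6531 were above 0 in the first pair and 6521 in the second. MAX, the dimer partner of MYC, was at 324.4, 207.9, 281.8 and 287.5 in the library titled shPJA/TGFb1, TGFb1, shPJA1 and shCtrl, so TGFb1 alone was low. SKP2, the ubiquitin ligase subunit that targets p27, was at 17.9, 23.9, 33.3 and 22.2, and the transcription factor gene FOXO3 at 50.5, 81.4, 57.6 and 64.3. The pocket protein and E2F list had medians of 0.03 and 0.10 in the pairs, with RBL1 at 66.8, 57.0, 47.7 and 63.1, E2F5 at 26.1, 28.5, 18.9 and 22.2 and E2F6 at 44.0, 33.0, 34.2 and 26.9.

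On the kinase side of GADD45, the partners of the GADD45 proteins did not separate as GADD45B did. The list of 7 measured genes had medians of 0.0070 in TGFb1 over shCtrl and 0.04 in the library titled shPJA/TGFb1 over shPJA1, with GADD45B as the only one beyond 2-fold. MAP2K3, an activator of p38, was at 65.2, 56.4, 57.6 and 56.1, and MAPK8, which encodes JNK1, at 22.8, 28.5, 25.2 and 23.4, in the library titled shPJA/TGFb1, TGFb1, shPJA1 and shCtrl. GADD45GIP1, a GADD45-binding mitochondrial protein gene, was at 0.54 in shPJA1 over shCtrl (0.32 to 0.90), from 28 and 40 reads. The other hairpin pair did not separate, at 0.92 in the library titled shPJA/TGFb1 over TGFb1 (0.53 to 1.55). The BTG and CCR4-NOT list had medians of 0.13 and 0.04, with 0 of 12 beyond 2-fold. Its CNOT3 was lowest in TGFb1, at 61.5, against 94.5 in the library titled shPJA/TGFb1, 102.6 in shPJA1 and 98.2 in shCtrl, and CNOT6L was lowest in shCtrl, at 44.4, against 71.7, 66.6 and 65.7 in the library titled shPJA/TGFb1, TGFb1 and shPJA1. CNOT8 was at 88.0, 61.5, 70.2 and 80.6 in the library titled shPJA/TGFb1, TGFb1, shPJA1 and shCtrl.

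**Figure D5:**
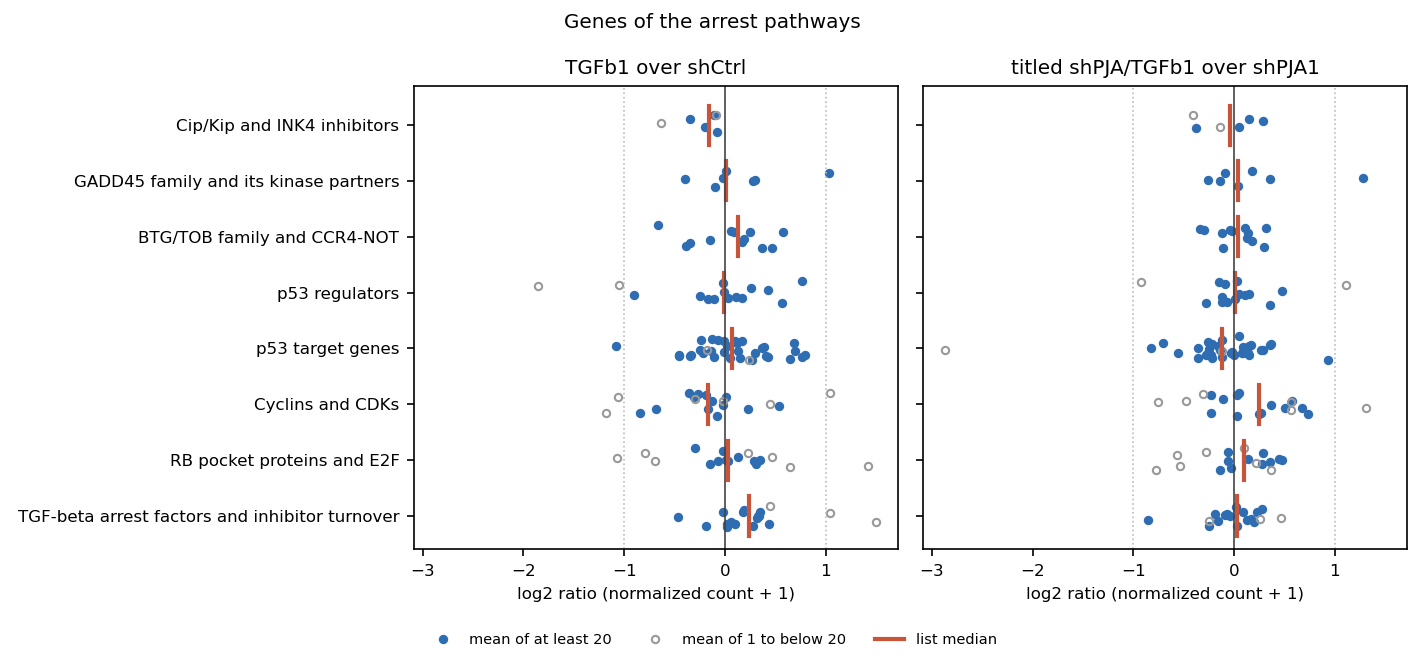
Log2 ratio of the normalized count plus 1 (x axis) of each measured gene of 8 arrest pathway lists (rows), in TGFb1 over shCtrl (left) and in the library titled shPJA/TGFb1 over shPJA1 (right). Filled points have a mean of at least 20, open points a lower mean, bars are list medians and dotted lines mark 2-fold; GADD45B is the filled point at 1.03 on the left and at 1.28 on the right, and BAX the filled point at -1.08 on the left.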

How the data were processed

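Total RNA libraries of HepG2 cells were made with an Illumina TruSeq kit, per the labels' protocols. FastQC, Trimmomatic, TopHat2 2.0.10 and Cufflinks are named, per the submitters' processing notes; neither build nor annotation is named there. The deposited signal, named as FPKM, is read counts divided by a size factor per library: 100% of the values are whole multiples of 1 step within 1e-06, so reads were recovered, and median-ratio factors recomputed from them equal the steps. Signal in this form is called normalized count. No other per-sample column was in the table.

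Ratios use log2(normalized count + 1), which understates changes of low genes, or plain ratios with exact 95% intervals. The count of 3 reads is the floor for 0. The edgeR 4.0.16 fit (R 4.3.3, TMM, at least 40 reads, Benjamini-Hochberg adjustment) had a common coefficient of variation of 10.9%, and p-values rest on a spread shared across genes; DESeq2 1.42.0 was an alternative. Nothing says whether libraries came from separate cultures. GC content is that of the longest GENCODE release 29 transcript, found for 98.9% of genes of a mean of at least 20, with lowess trends (span 0.3). Named genes are the 9 genes, PJA1, SMAD7, up to 3 genes per list with the largest range, and the 5 nearest to the most variable of the 9. One gene that this rule names is not reported here. The genes and lists were chosen with earlier results of these data known. Steps were tested on simulated data. Ratios and intervals were computed in Python 3.11.15 with scipy 1.17.1 and pandas 2.3.3.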

Additional observations from a re-analysis of the deposited data

Results flagged for a closer look

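In 4 of the 7 measured arrest genes the TGFb1 pairs by title went opposite ways, above 1 in one pair and below 1 in the other, which is what marked them. The size of the disagreement is the ratio in the library titled shPJA/TGFb1 over shPJA1 divided by the ratio in TGFb1 over shCtrl. It was 1.20 for CDKN1A (1.09 to 1.32), 1.33 for CDKN1B (0.91 to 1.93), 0.68 for GADD45A (0.53 to 0.87) and 1.40 for BTG2 (1.01 to 1.94), with intervals from counting error by a normal approximation. With 1 library per condition the difference was not tested. How many of all genes went opposite ways was not counted. Over the 8575 genes averaging at least 20, 4491 log2 ratios were above 0 and 4084 below in TGFb1 over shCtrl. In the library titled shPJA/TGFb1 over shPJA1 it was 4332 and 4243. These splits do not give the share of genes whose pairs disagree. Without that share, 4 of 7 is not read as a trait of these genes. With the GC trends removed CDKN1A was above 1 in both pairs, at log2 ratios of 0.05 in the library titled shPJA/TGFb1 over shPJA1 and 0.03 in TGFb1 over shCtrl.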

How the results depend on the processing

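No paired analysis was possible because each condition has 1 library, and for the same reason no library could be left out of its condition; without the library titled shPJA/TGFb1 the fit has no residual degrees of freedom. Of 245 log2 ratios of the 7 genes recomputed under 7 alternatives, 239 stayed inside their counting interval. The 6 that left it were all for CDKN1A or MDM2 with the GC trend removed. Of the ratios beyond 2-fold, all for GADD45B, 0 changed sign. Smaller ratios did change sign with the GC trend removed. In shPJA1 over shCtrl CDKN1A went from -0.06 to 0.05, GADD45B from -0.07 to 0.03 and CDKN2B from 0.0026 to -0.02. In TGFb1 over shCtrl CDKN1A went from -0.11 to 0.03. The alternatives without a filter and with a mean of at least 20 change only which genes are counted. They could not move a ratio, so the 239 includes values that were fixed in advance. In the fit, 56 of 56 log2 changes kept their direction and side of the threshold. GADD45B in TGFb1 over shCtrl ran from 0.91 to 1.18, and with a pseudocount of 5, by which low genes shrink most, 0 of the 7 were beyond 2-fold there. Its adjusted p for TGFb1 ran from 0.189 to 0.99999, the first with the GC offset in edgeR and the second in DESeq2. Over all genes the number beyond 2-fold followed the few-read genes. With a pseudocount of 5 it was 171 in TGFb1 over shCtrl, 257 in the library titled shPJA/TGFb1 over shPJA1, 134 in shPJA1 over shCtrl, 234 in the library titled shPJA/TGFb1 over TGFb1 and 349 in it over shCtrl. At a mean of at least 20 it was 100, 93, 44, 112 and 141 in the same order, against 1183, 1489, 1102, 1331 and 1617 as reported. Without a filter it was 2035 in TGFb1 over shCtrl, 1819 in shPJA1 over shCtrl, 2100 in the library titled shPJA/TGFb1 over TGFb1 and 2775 in it over shCtrl. For TGFb1 the fit called 11 genes with the GC offset and 0 with DESeq2, and for the hairpin 0 with either, against 4 and 1; at an unadjusted p under 0.05 the hairpin had 389 and 4 genes and TGFb1 560 and 23. The cause was not tested.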
